A study of Mus musculus with 12 samples.

Results

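The comparison described here sets the livers of LCWE-induced C57BL/6 mice against the livers of C57BL/6 mice given phosphate-buffered saline (PBS). It covers 6 of the 12 RNA sequencing libraries of a mouse series that also holds small intestine, with 3 liver libraries per treatment: PBS replicates 2, 3 and 4 and LCWE replicates 1, 2 and 4, as numbered in the labels. A gene was tested when its level reached 0.5 RPKM (read count scaled by gene length and by the library's reads assigned to genes) in 3 or more of these 6 libraries, which 14404 of 34348 genes did. LCWE is not spelled out in the labels. In mouse work it is the common short form of Lactobacillus casei cell wall extract. In the authors' table of differential expression, which was not used for values, the treated groups carry names that read LCWECFA, and none of the sources used here explains the letters CFA. Dose, route, time after treatment, age and sex are not given in the labels, nor is it said whether each library is a separate animal. The p-values below therefore measure the spread between these libraries, which may be in part technical.

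The liver answers microbial products in blood mainly through its resident macrophages, the Kupffer cells, and through hepatocytes. Macrophage cytokines such as interleukin 6, interleukin 1 and tumour necrosis factor act on hepatocytes by STAT3 and NF-kB and raise the acute phase proteins, secreted proteins that bind microbes, metals and haem. Interferon gamma from T and NK cells acts on most cell types and raises GTPases that attack intracellular microbes, together with the machinery of antigen presentation. Making more secreted protein loads the endoplasmic reticulum (ER), where the unfolded protein response raises chaperones and folding enzymes.

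Promoter sequences are shown for 3 genes. Each is the gene that rose most, among those with a promoter in the table used, in a gene group that the results below turn on. The same rule picked Saa2 for the acute phase group and Tap1 for the class I group. For the cholesterol group it picked Sc5d, the gene that fell most. Their promoters were searched too but are not shown. They come from RefSeq (build GRCm38.p6) and run from 250 bases before to 50 bases after the RefSeq start, 5′ to 3′ on the gene's strand. Capitals mark matches, on either strand, to the motifs named after the sequences; CCAAT boxes that stand alone are left in lower case.
Creld2 (ER folding, chr15:88819396-88819695, plus strand): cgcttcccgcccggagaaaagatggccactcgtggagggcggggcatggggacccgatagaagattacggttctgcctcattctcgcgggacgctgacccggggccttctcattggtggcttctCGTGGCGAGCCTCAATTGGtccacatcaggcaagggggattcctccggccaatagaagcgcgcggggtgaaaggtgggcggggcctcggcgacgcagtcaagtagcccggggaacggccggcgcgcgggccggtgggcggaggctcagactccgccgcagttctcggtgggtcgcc
Mt2 (metallothionein, chr8:94172368-94172667, plus strand): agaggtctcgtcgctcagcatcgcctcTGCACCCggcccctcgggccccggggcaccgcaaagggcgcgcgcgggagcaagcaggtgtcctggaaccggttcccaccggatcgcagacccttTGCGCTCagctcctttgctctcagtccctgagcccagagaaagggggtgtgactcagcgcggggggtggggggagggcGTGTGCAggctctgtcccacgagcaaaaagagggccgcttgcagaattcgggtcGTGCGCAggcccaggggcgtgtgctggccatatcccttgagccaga
Tgtp1 (interferon-inducible GTPase, chr11:48992197-48992496, minus strand): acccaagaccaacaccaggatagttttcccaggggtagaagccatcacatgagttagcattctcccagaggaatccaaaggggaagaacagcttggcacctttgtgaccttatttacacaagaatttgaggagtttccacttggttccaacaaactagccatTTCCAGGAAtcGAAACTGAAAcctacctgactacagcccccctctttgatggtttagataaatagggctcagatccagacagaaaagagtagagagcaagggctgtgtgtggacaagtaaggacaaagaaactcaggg
In Creld2 the capitals are 1 endoplasmic reticulum stress element, a CCAAT box and CCACG spaced by 9 bases (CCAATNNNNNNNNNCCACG), read here on the opposite strand. In Mt2 they are 4 metal response elements (TGCACNC or TGCGCNC). In Tgtp1 they are a STAT site (TTCNNNGAA) followed by an interferon-stimulated response element (GAAANNGAAA); the RefSeq start of Tgtp1 lies 1926 bases from the start in the deposited table. A match is a description of letters and not a site of binding.

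The interferon-stimulated element and the stress element recur within 2 of the gene groups that rose, and their windows are shown for comparison, with the element in capitals and 8 bases on each side. These windows were chosen after the values were seen. All 10 promoters available for risen interferon-inducible GTPases hold the interferon-stimulated element, against 3.22% of the promoters of tested genes (3.24% of all 16032 matched promoters). The windows of 8 of them, all GRCm38.p6, are:
Igtp (chr11:58199514-58199539, plus strand): taggaactGAAACTGAAAgctgttcg
Irgm2 (chr11:58214905-58214930, plus strand): caggaactGAAACTGAAAgctgttcg
Tgtp1 (chr11:48992306-48992331, minus strand): caggaatcGAAACTGAAAcctacctg
Tgtp2 (chr11:49064265-49064290, minus strand): caggaatcGAAACCGAAAcctactct
Gbp2 (chr3:142620596-142620621, plus strand): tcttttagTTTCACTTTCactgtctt
Gbp3 (chr3:142559991-142560016, plus strand): ggacacagTTTCAGTTTCtatttccc
Gbp5 (chr3:142496761-142496786, plus strand): ttgtgtagTTTCAATTTCagtttaga
Gbp7 (chr3:142530275-142530300, plus strand): gtgtgcagTTTCAGTTTCagttctcc
The Igtp and Irgm2 windows are nearly the same, as are those of Tgtp1 and Tgtp2, while the Gbp genes shown carry the element on the opposite strand. A STAT site was present in 6 of these 10 promoters, against 6.91% of tested promoters. In the other interferon-related groups the interferon-stimulated element was in none of 7 promoters of risen class I genes, Tap1 among them, in 1 of 6 of risen class II genes, in 1 of 8 of risen interferon gamma genes and in none of 4 of risen type I genes, although 14 of 31 promoters of all tested type I genes hold it. Of 17 promoters of risen ER genes, 5 hold the stress element, against 0.1655% of the promoters of tested genes, which is 15 promoters in all. Of those 15, 9 belong to the ER list. The windows of the 5, all GRCm38.p6, are:
Hspa5 (chr2:34772017-34772051, plus strand): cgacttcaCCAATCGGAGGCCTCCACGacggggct
Hsp90b1 (chr10:86705630-86705664, minus strand): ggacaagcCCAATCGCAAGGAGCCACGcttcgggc
Syvn1 (chr19:6046524-6046558, plus strand): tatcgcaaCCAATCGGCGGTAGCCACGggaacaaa
Creld2 (chr15:88819512-88819546, plus strand): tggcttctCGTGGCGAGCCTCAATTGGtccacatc
Derl3 (chr10:75893234-75893268, plus strand): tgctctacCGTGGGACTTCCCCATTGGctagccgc
Hspa5, Hsp90b1 and Syvn1 carry the element in the direction of the gene, and Creld2 and Derl3 carry it reversed. A plain CCAAT box was present in 16 of the 17, against 38.8% of tested promoters. Of 3 promoters of risen metal genes, all 3 hold a metal response element, but so do 35.5% of tested promoters. The promoter window of Saa2 holds none of these elements and no NF-kB site (GGGNNTTTCC).

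Each liver library held 34741958 to 44921885 reads that fell in genes. Hepatocyte genes such as Alb dominated all 6 libraries: 8 hepatocyte identity genes summed to between 24280.0 and 45148 RPKM, the enterocyte list to between 40.3 and 115.5 RPKM and the exocrine pancreas list to between 2.27 and 8.22 RPKM. PBS replicate 2 stood apart from the rest, with the largest share of reads in its 10 most abundant genes (20.4%, against 15.3 to 17.5%) and of haemoglobin reads (0.0116%, against 0.00214 to 0.00368%). The Y-linked gene Ddx3y was read at 9.88 to 17.5 RPKM in every liver library.

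Livers of LCWE-induced mice carried higher transcript levels of some of the genes for acute phase proteins, interferon-induced proteins, antigen presentation, leukocyte proteins and ER chaperones. Measured levels were lower for 7SL and 7SK RNA and for some genes of sterol, carbohydrate and ester metabolism. Of 14404 tested genes, 582 passed an adjusted p of 0.05 in limma (4.04%), 489 upward (3.39%) and 93 downward (0.646%). Changes of at least 2-fold were found in 234 of the risen and 36 of the fallen genes, and of at least 4-fold in 32 and 12. Fold changes are differences of log2(RPKM + 0.5) and so understate the change of genes near or under that level. Over all tested genes the median difference was 0.06 and 60.2% were higher in LCWE livers. With quantile scaling the split moved to 342 risen and 123 fallen. In bulk tissue, more cells of a type and more RNA per cell cannot be told apart. For each of the 582 the groups do not overlap, which was so for 3968 of all tested genes (27.5%). In 209 tested genes every PBS library was below 0.5 RPKM, so that they reached the filter only through the LCWE libraries and had to be higher there; 81 of the 489 risen genes are of this kind, and 13 of the fallen genes reached it only through PBS. Such a gene goes untested when a library of its high group is left out. With 1 library left out the count was 943 without PBS 2, 235 without PBS 4, 113 without PBS 3, 249 without LCWE 4, 88 without LCWE 1 and 55 without LCWE 2.

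**Figure D1:**
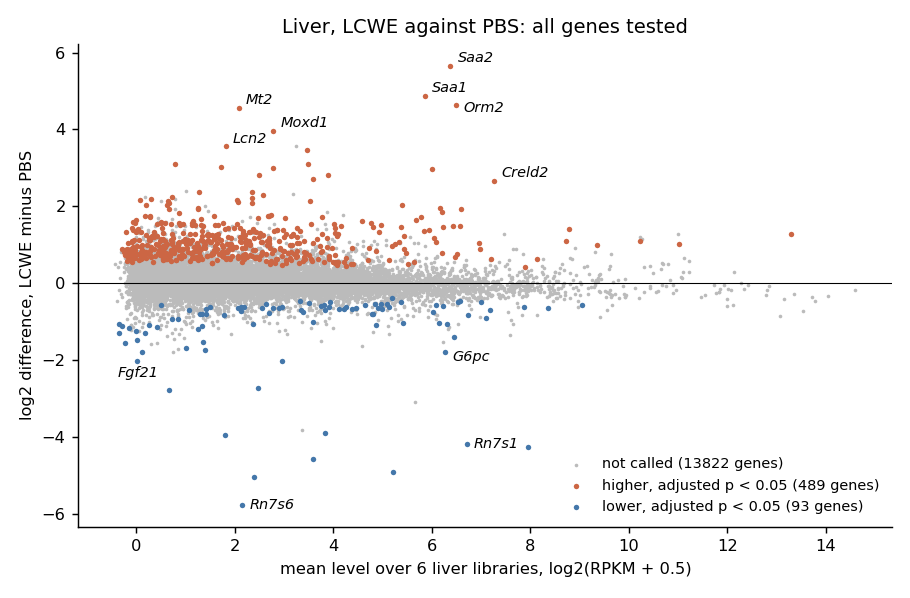
Each point is 1 of the 14404 genes tested in liver, placed by its mean level over the 6 libraries, log2(RPKM + 0.5), and by its log2 difference, LCWE minus PBS. The 489 risen genes (orange) include 41 with a mean below 1 RPKM in LCWE, and the genes furthest below 0 are 7SL genes such as Rn7s6 and Rn7s1 (blue, 93 fallen genes).

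The genes with the largest rises chosen by rule include several acute phase genes. Here and below, liver values are listed as PBS replicates 2, 3 and 4 against LCWE replicates 1, 2 and 4. Saa2, a serum amyloid A apolipoprotein (chromosome 7, 46751790 to 46754313), stood at 15.8, 8.31 and 10.6 against 513, 862 and 457 RPKM. Its log2 difference was 5.65 ± 0.30 (SE), a 50.3-fold change (limma adjusted p = 0.00327, n = 3 per group), and the lowest LCWE library lay far above the highest PBS library. Its neighbour Saa1 stood at 19.8, 6.37 and 8.33 against 282, 386 and 279 RPKM and differed by 4.87 ± 0.39; the pair are near-identical, so reads may have been split between them. Orm2, an alpha-1-acid glycoprotein that binds drugs and lipids in plasma, stood at 25.8, 13.3 and 15.7 against 579.6, 1028 and 153 RPKM and differed by 4.64 ± 0.66 (limma adjusted p = 0.0179). LCWE replicate 4 reached less than the other treated libraries for Orm2 but still exceeded every PBS library. Lcn2, lipocalin 2, which starves bacteria of iron by binding their siderophores, stood at 0.905, 0.277 and 0.494 against 17, 19 and 4.72 RPKM, with LCWE 4 again lowest of the treated libraries. In reads, Lcn2 rose from 26 to 106 per PBS library to 430 to 2233 per LCWE library (difference 3.56 ± 0.51).

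Several abundant acute phase genes were higher in every treated library without passing the test. Of 30 tested acute phase genes, 10 rose (33.3%, against 3.39% of all tested genes) and none fell, 28 were higher and the median difference was 1.0. The other risen members were Lbp, which carries lipopolysaccharide to CD14, the serine protease inhibitor Serpina3g, the macrophage and adipose amyloid Saa3, the metalloreductase Steap4, the interleukin 1 receptor antagonist Il1rn and the copper carrier Cp. Lbp stood at 5.96, 5.62 and 5.99 against 14.2, 15.5 and 12.5 RPKM, a tight separation, and differed by 1.19 ± 0.11 (limma adjusted p = 0.00557). Haptoglobin, Hp, which binds free haemoglobin, stood at 1172, 665 and 624 against 1854, 2324 and 1374 RPKM (difference 1.20 ± 0.29) and did not pass (limma adjusted p = 0.0752). Hemopexin, Hpx, which binds free haem, stood at 1907, 1118 and 1050.4 against 3252, 4148 and 2348 RPKM, without overlap between the groups (difference 1.27 ± 0.29, limma adjusted p = 0.067). For both, PBS replicate 2 was the highest control. The fibrinogen chain gene Fga stood at 2401, 1588 and 1474 against 2755, 3270.0 and 2469 RPKM, where the highest control came close to the lowest treated library (limma adjusted p = 0.158). Crp, a weak acute phase gene in mice, stood at 33.7, 27 and 31.3 against 34, 35.9 and 37.7 RPKM (limma adjusted p = 0.348). Over the 6 fits that each left out 1 library, 4 (without LCWE 2) to 19 (without PBS 2) of the 30 passed, and the median lay between 0.77 and 1.24. Of 24 plasma proteins that are known to be lowered in inflammation, none passed in either direction and 18 were lower (median -0.17). Among them, transthyretin, Ttr, stood at 5758, 4567 and 4774 against 3248, 3495 and 3193 RPKM without overlap (difference -0.60 ± 0.13, limma adjusted p = 0.0612).

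**Figure D2:**
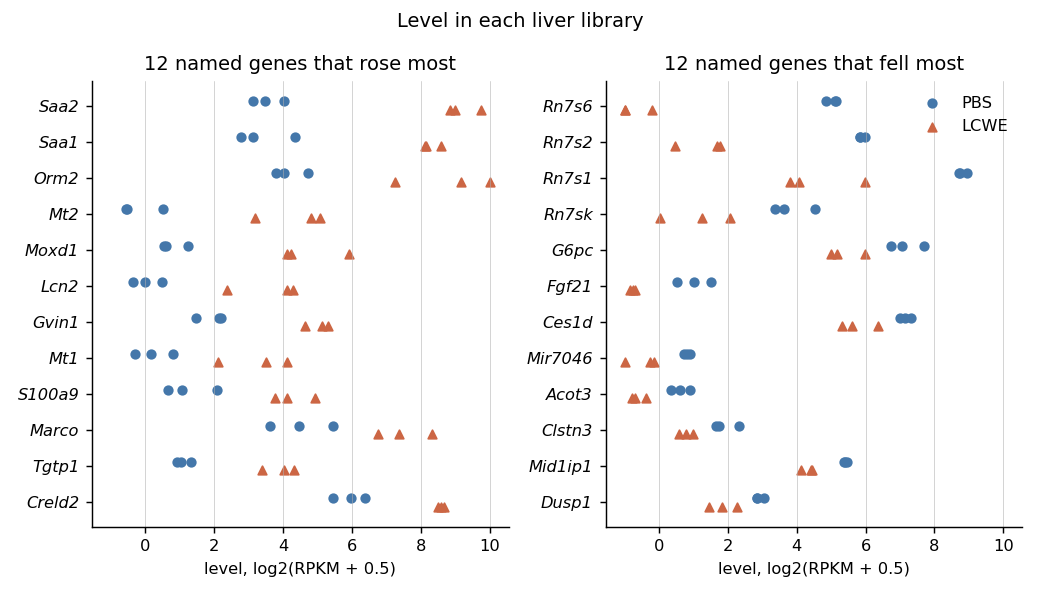
Each point is 1 liver library (circles PBS, triangles LCWE), with the level as log2(RPKM + 0.5), for the 12 named genes that rose most and the 12 that fell most. The groups do not overlap for any of the 24, and LCWE replicate 4 is the lowest treated library for Orm2 and Lcn2 and the highest for Marco.

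Of the signalling genes upstream, 7 of 18 NF-kB genes rose (38.9%) and 2 of 23 genes of interleukin 6, STAT3 and C/EBP did (8.7%), against 3.39% of all tested genes. Stat3, the transcription factor of interleukin 6 signalling, stood at 9.69, 8.8 and 9.15 against 13.1, 14 and 14.6 RPKM and differed by 0.57 ± 0.10 (limma adjusted p = 0.0296). Osmr, the oncostatin M receptor, was the other of these 23 that rose (difference 0.62 ± 0.12), and 21 of the 23 were higher (median 0.43, or 0.20 without PBS 2 and 0.27 without LCWE 1). Socs3, the feedback inhibitor of STAT3, stood at 2.48, 1.93 and 1.22 against 2.93, 4.55 and 15.3 RPKM and did not pass; its LCWE replicate 4 was far above the other treated libraries. All 18 genes of NF-kB subunits and feedback were higher (median 0.51). Tnfaip3, the A20 enzyme that shuts NF-kB signalling off, stood at 0.304, 0.286 and 0.352 against 1.41, 1.75 and 1.48 RPKM, with no PBS library near any LCWE library (difference 1.33 ± 0.12, limma adjusted p = 0.00557). The kinase gene Ikbke stood at 1.49, 1.45 and 1.69 against 4.59, 4.04 and 4.61 RPKM (difference 1.27 ± 0.11), and Nfkbia, another feedback inhibitor, stood at 8.45, 9.18 and 10.7 against 9.76, 9.26 and 15.6 RPKM and did not pass (limma adjusted p = 0.592). Without PBS 2, 1 of the interleukin 6 genes passed, and none did when any other single library was left out, where Osmr was untested without an LCWE library, as was Tnfaip3. Of the NF-kB genes 1 (without LCWE 1 or LCWE 2) to 8 (without PBS 2) passed.

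Some genes listed for the sensing of bacterial cell wall and its signalling, and some chemokines, rose. Of 20 tested genes of cell wall sensing, 4 rose (20.0%, against 3.39% of all tested genes): Irak3, the inhibitory kinase of Toll-like receptor signalling, the kinase gene Syk, the receptor chain gene Fcer1g and the lipopolysaccharide co-receptor Cd14. Irak3 was low in all controls, at 0.433, 0.569 and 0.719 against 2.07, 2.59 and 3.41 RPKM (difference 1.56 ± 0.19, limma adjusted p = 0.0122). Nod1, a cytosolic receptor for peptidoglycan, stood at 1.69, 2.06 and 1.97 against 2.51, 2.2 and 2.45 RPKM (limma adjusted p = 0.297). The adaptor Myd88 stood at 3.46, 3.47 and 4.3 against 4.85, 5.12 and 5.94 RPKM (limma adjusted p = 0.123). Neither passed, although the groups do not overlap. Among 18 inflammasome and interleukin 1 genes, the receptor Il1r1 (2.82, 4.06 and 4.99 against 10.1, 14 and 8.42 RPKM; difference 1.35 ± 0.24) and its antagonist Il1rn rose (11.1% of the 18). The cytokine gene Il1b itself stood at 4.64, 4.1 and 5.23 against 2.82, 2.49 and 5.19 RPKM, with overlapping groups. Chemokine genes were low and often untested, with 15 of 39 reaching the filter. Of the 15, 4 rose (26.7%), of which Ccl2 and Cxcl10 reached the filter only through the LCWE libraries. Cxcl9, which draws T cells through CXCR3, stood at 3.62, 6.54 and 5.3 against 25.5, 23.5 and 22.7 RPKM and differed by 2.14 ± 0.20 (limma adjusted p = 0.00557). Cxcl10, Ccl2 and Cxcl16 were the others. Cxcl1, which draws neutrophils, stood at 8.78, 0.893 and 1.08 against 15.4, 18.3 and 117 RPKM. Its largest value was in LCWE replicate 4, and it did not pass (difference 3.58 ± 0.99, limma adjusted p = 0.105). Of 17 adhesion molecules, 7 rose (41.2%). Icam1, to which leukocytes bind on endothelium, stood at 2.64, 3.06 and 3.35 against 7.07, 8.26 and 6.92 RPKM. Vcam1, with the same role, stood at 0.886, 0.783 and 0.86 against 2.05, 2.55 and 2.83 RPKM. The leukocyte integrin chain Itgb2 stood at 4.26, 3.86 and 3.83 against 10.8, 10.9 and 11.8 RPKM. Dropping 1 library left 0 (without PBS 3 or LCWE 2) to 4 (without PBS 2) of the cell wall genes and 1 (without PBS 3, LCWE 1 or LCWE 2) to 5 (without PBS 2) of the chemokines past the threshold. It left 2 (without LCWE 2) to 8 (without PBS 2) of the adhesion molecules. Neither interleukin 1 gene passed when any single library other than PBS 2 was left out, and Il1rn was untested without an LCWE library.

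Interferon-inducible GTPases rose almost as a whole family. Of 20 tested, 17 rose (85.0%, against 3.39% of all tested genes), 20 were higher and the median difference was 1.34. The family holds large GTPases of the Gvin group, p65 guanylate-binding proteins (Gbp) and immunity-related p47 GTPases (Irgm1, Irgm2, Igtp, Tgtp1, Tgtp2 and Iigp1), which gather on the vacuoles of intracellular microbes. Gvin1 stood at 2.27, 4.13 and 3.9 against 34.7, 39.3 and 24.5 RPKM and differed by 3.09 ± 0.25 (limma adjusted p = 0.00557). Tgtp1, whose promoter is printed above, stood at 1.57, 1.99 and 1.4 against 19.4, 15.8 and 10.1 RPKM and differed by 2.82 ± 0.24. Its near-copy Tgtp2 stood at 1.56, 2.3 and 1.78 against 11.5, 12 and 8.38 RPKM. The pair may share reads, as may the Gbp copies. Gbp2 stood at 2.61, 2.93 and 3.6 against 11.9, 11.8 and 10.5 RPKM. Gbp3 stood at 10.5, 9.1 and 9.06 against 28.4, 27.2 and 24.5 RPKM. Each had a gap of more than 2-fold between the groups. Of the p47 group, Igtp stood at 10.6, 15.7 and 14 against 42.1, 46.5 and 36.4 RPKM, and Irgm2 followed at 7.59, 10.2 and 10.03 against 22.7, 22.8 and 19.1 RPKM. Iigp1 was the most abundant and the least changed of the 17 that rose, at 76.1, 72.3 and 61.6 against 113, 111 and 114 RPKM (difference 0.69 ± 0.11). The 3 that did not pass were Gbp11 and the dynamin-like genes Mx1 and Mx2. Gbp11 stood at 2.95, 7.08 and 4.63 against 16.3, 5.54 and 3.49 RPKM, with only LCWE replicate 1 above the controls. With any 1 library left out, 8 (without LCWE 2) to 18 (without PBS 2) of the 20 passed, and the median lay between 1.21 and 1.43.

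Genes of the interferon gamma response rose, and classical type I interferon genes did not pass. Of 19 tested genes of the interferon gamma response, 12 rose (63.2%, against 3.39% of all tested genes), with a median of 0.91. The checkpoint ligand Cd274 stood at 1.75, 1.93 and 2.02 against 6.13, 6.66 and 5.29 RPKM (difference 1.44 ± 0.12, limma adjusted p = 0.00557). Ciita, the activator of MHC class II genes, stood at 0.23, 0.478 and 0.436 against 2.48, 2.46 and 1.42 RPKM (difference 1.56 ± 0.22). Both separated the groups by a wide gap. Acod1, which makes itaconate in activated macrophages, stood at 0.0512, 0.0319 and 0.0582 against 1.03, 0.747 and 0.834 RPKM. Of 43 tested genes of the type I response, 7 rose (16.3%), 41 were higher and the median was 0.45. Among the 7 were Epsti1, Zbp1, Oasl2, Ifi204, Lgals3bp and Irf9. The groups overlapped for Isg15, a ubiquitin-like modifier, at 8.33, 5.57 and 5.25 against 6.76, 8.98 and 6.59 RPKM (limma adjusted p = 0.612). They also overlapped for the RNA sensor Ifit1, at 1.92, 1.62 and 1.3 against 2.02, 2.49 and 1.51 RPKM (limma adjusted p = 0.56), and for the antiviral enzyme gene Rsad2, at 1.81, 1.65 and 1.37 against 1.64, 1.94 and 1.77 RPKM (limma adjusted p = 0.683). Whether the lists differ was not tested. Cxcl9, Cxcl10 and Serpina3g, among others, belong to more than 1 of the lists named here. Omitting 1 library gave 3 (LCWE 2) to 13 (PBS 2) interferon gamma genes and 0 (LCWE 2) to 15 (PBS 2) type I genes past the threshold.

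**Figure D3:**
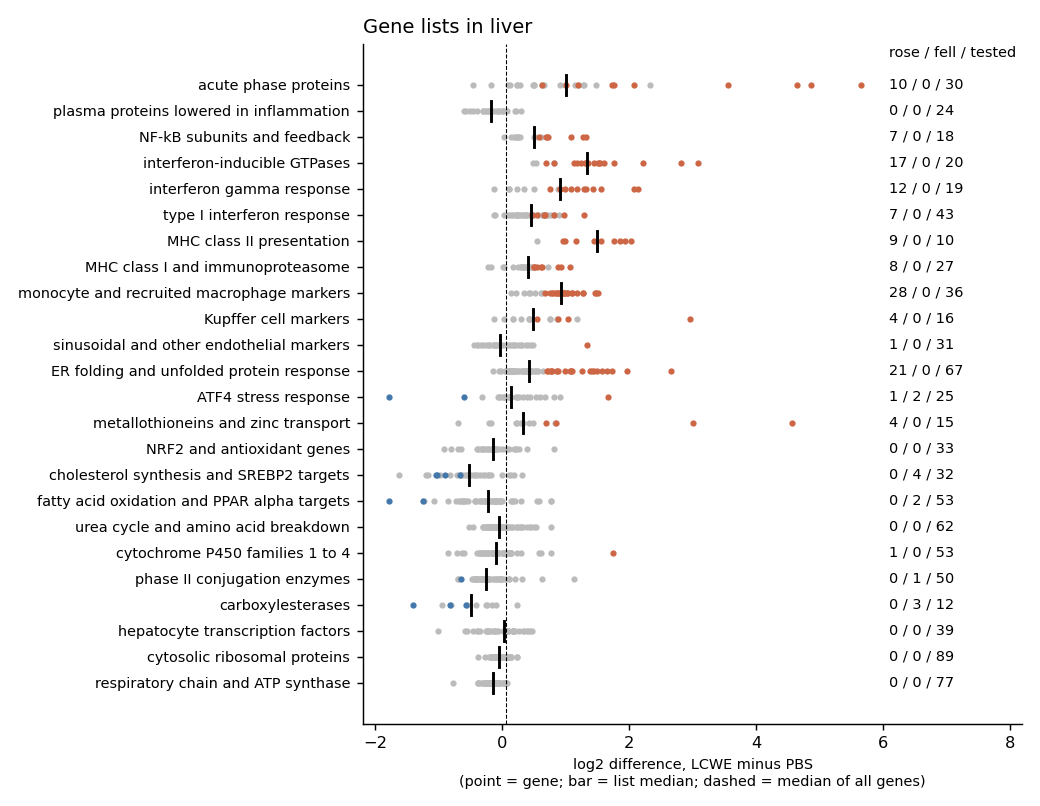
Each point is 1 tested gene of the list named at the left, placed by its log2 difference, LCWE minus PBS (orange risen, blue fallen, grey not past an adjusted p of 0.05); black bars are list medians and the dashed line is the median of all 14404 genes. Interferon-inducible GTPases (17 of 20 risen), MHC class II genes (9 of 10) and macrophage markers (28 of 36) lie mostly to the right of that line, and cholesterol genes (4 of 32 fallen) mostly to its left.

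Most genes of MHC class II presentation rose, and most of the class I genes did not pass. Of 10 tested MHC class II genes, 9 rose (90.0%, against 3.39% of all tested genes) and all 10 were higher, with a median difference of 1.5. The class II beta chain H2-Ab1 stood at 43, 51.6 and 53.1 against 209.7, 222 and 142 RPKM and differed by 1.93 ± 0.19 (limma adjusted p = 0.00604). The invariant chain Cd74, which guards the class II groove until peptide is loaded, stood at 37.1, 34.3 and 44.1 against 146, 154 and 122 RPKM (difference 1.85 ± 0.14). The peptide exchanger chain H2-DMa was low, at 0.573, 0.527 and 0.635 against 2.18, 1.28 and 1.58 RPKM (difference 0.99 ± 0.17). The protease Ctss, which trims the invariant chain, stood at 46.6, 40.1 and 43.6 against 109, 106 and 81.5 RPKM. In each of these genes the lowest LCWE library lay above the highest PBS library. Of 27 class I and immunoproteasome genes, 8 rose (29.6%), 25 were higher and the median was 0.40. Tap1, which pumps peptides into the ER, stood at 3.04, 2.45 and 2.13 against 6.07, 6.09 and 5.26 RPKM (difference 1.06 ± 0.14, limma adjusted p = 0.0152). The immunoproteasome subunit Psmb9 stood at 2.02, 1.81 and 1.55 against 4.03, 3.55 and 3.56 RPKM. The heavy chain H2-D1, far more abundant, stood at 239, 218 and 217 against 342, 374 and 327 RPKM. The light chain B2m did not pass, and its highest control nearly met its lowest treated library, at 384, 293 and 316 against 385, 413 and 411 RPKM (limma adjusted p = 0.275). Fits without PBS 3, LCWE 1 or LCWE 2 each called 4 class II genes and 0 class I genes, and the fit without PBS 2 called 9 and 13. The markers of macrophages and lymphocytes given next moved with these genes and with the interferon-induced genes above, and their part in these results was not tested.

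Genes listed as markers of monocytes and macrophages rose broadly. Of 36 tested, 28 rose (77.8%, against 3.39% of all tested genes), all 36 were higher and the median difference was 0.93. The summed level of the list was 307.8 to 339.3 RPKM in PBS and 539.1 to 588.8 RPKM in LCWE livers, and no listed gene was at 0 in all 6 libraries. Lyz2, lysozyme of macrophages and neutrophils, stood at 40.0, 39 and 57 against 109, 111 and 157 RPKM (difference 1.46 ± 0.20). Mpeg1, a pore former of macrophages, stood at 11.9, 8.95 and 9.78 against 30.2, 30.9 and 26.6 RPKM (difference 1.48 ± 0.13, limma adjusted p = 0.00557). Csf1r, the receptor that macrophages need to survive, stood at 6.68, 8.14 and 9.24 against 15.7, 17.9 and 17.1 RPKM. Each was higher in every treated library than in any control. So was Ptprc, the pan-leukocyte surface marker CD45, at 1.4, 1.57 and 1.91 against 4.44, 4.22 and 4.22 RPKM. Cx3cr1, Ccr2 and Ly6c2, which mark blood monocytes, did not reach the filter. Whether recruited or resident macrophages carried the risen genes was not tested. Without LCWE 2, 2 of the 36 passed, without LCWE 1 5, without PBS 3 7, without LCWE 4 12, without PBS 4 14 and without PBS 2 29, while the median lay between 0.86 and 0.92.

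Some markers of Kupffer cells rose too. Of 16 tested, 4 rose, where 3.39% of all tested genes did, and 15 were higher (median 0.49). Summed levels of the list were 262.3 to 320.1 RPKM in PBS and 491 to 738.7 RPKM in LCWE livers. Marco, a scavenger receptor that binds bacterial surfaces, stood at 11.9, 21.7 and 43.4 against 108, 165 and 319 RPKM and differed by 2.96 ± 0.54 (limma adjusted p = 0.0369), with a wide spread in both groups. Cd5l, a lipid-binding secreted protein of Kupffer cells, stood at 77.9, 92.7 and 88.5 against 159, 198 and 176 RPKM and differed by 1.03 ± 0.12. Clec4f, a C-type lectin specific to mouse Kupffer cells, stood at 54.5, 46.9 and 50.4 against 65.4, 71.4 and 67.8 RPKM (difference 0.43 ± 0.10, limma adjusted p = 0.0652). Timd4, a marker of long-resident Kupffer cells, stood at 4.86, 6.1 and 5.21 against 7.01, 9.22 and 16 RPKM. Neither passed, and neither overlapped between the groups. The complement recognition chains C1qa, C1qb and C1qc, made by macrophages, rose, with C1qa at 29.4, 23.3 and 26.4 against 45.1, 49.2 and 68.1 RPKM. With the protein C receptor Procr they were the 4 of 56 complement and coagulation genes that did (7.14%), while 44 of the 56 were higher (median 0.15). Of the Kupffer markers 0 (without LCWE 2) to 5 (without PBS 2) passed when 1 library was dropped. Of the complement genes 10 passed without PBS 2 and none when any other single library was left out.

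Most of the listed lymphocyte and granulocyte markers did not reach the filter. Of 33 T and NK cell markers 9 reached the filter and 4 rose (44.4% of the 9, against 3.39% of all tested genes). They were Thy1, Gzmb, which encodes granzyme B, the kinase Lck and the T cell receptor chain Cd3g. Lck and Cd3g reached the filter only through the LCWE libraries and so had to be higher there, as did 3 of the 9 in all. Cd3g stood at 0.247, 0.273 and 0.202 against 0.959, 0.749 and 0.599 RPKM. The list summed to 7.75 to 8.39 RPKM in PBS and 16.2 to 19.1 RPKM in LCWE livers. Of 25 B and plasma cell markers 11 were tested and 7 rose (63.6% of the 11), mainly antibody genes. Summed levels of the list were 51.8 to 87.0 RPKM in PBS and 104.4 to 132.0 RPKM in LCWE livers. The light chain Igkc stood at 26.5, 12.6 and 17.8 against 61.2, 58.1 and 41.8 RPKM (difference 1.52 ± 0.28). The IgG heavy chain Ighg2c stood at 2.97, 0.989 and 1.09 against 8.55, 10.7 and 6.23 RPKM (difference 2.12 ± 0.36). Ighm, the IgM heavy chain, stood at 13.2, 2.16 and 1.77 against 9.63, 8.49 and 4.2 RPKM and did not pass, with its highest value in PBS replicate 2. The defining B cell genes Cd79a and Ms4a1 did not reach the filter. Of 29 neutrophil markers 9 were tested and 4 rose (44.4% of the 9). Of the 9, 3 reached the filter only through the LCWE libraries, S100a8 and Csf3r among them. S100a9, a calprotectin subunit, stood at 3.78, 1.07 and 1.61 against 16.9, 30.3 and 13.1 RPKM (difference 3.0 ± 0.43, limma adjusted p = 0.0185). Its partner S100a8 stood at 0.258, 0.161 and 0 against 0.759, 1.38 and 1.2 RPKM. Csf3r and Lcn2 were the others, and Lcn2 is made by hepatocytes too. Mpo, Ly6g and Elane, which define neutrophils and their precursors, did not reach the filter. The summed level of the neutrophil list overlapped, at 299.1 to 577.1 RPKM in PBS and 404.7 to 518.1 RPKM in LCWE livers. In every library most of that sum came from listed genes other than the 4 that rose, so the overlap does not describe those 4. Without LCWE 1 or LCWE 2 none of the markers in these lists passed, and without PBS 3 only 1 did, a B and plasma cell marker. Without PBS 2, 3 T and NK, 6 B and plasma cell and 4 neutrophil markers passed. Each fit without an LCWE library tested 6 instead of 9 genes in the T and NK list and in the neutrophil list. The median of the neutrophil list was 1.21 over all 6 libraries and 1.15 to 1.17 without a PBS library, and over the 6 genes it was 0.09 to 0.23.

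**Figure D4:**
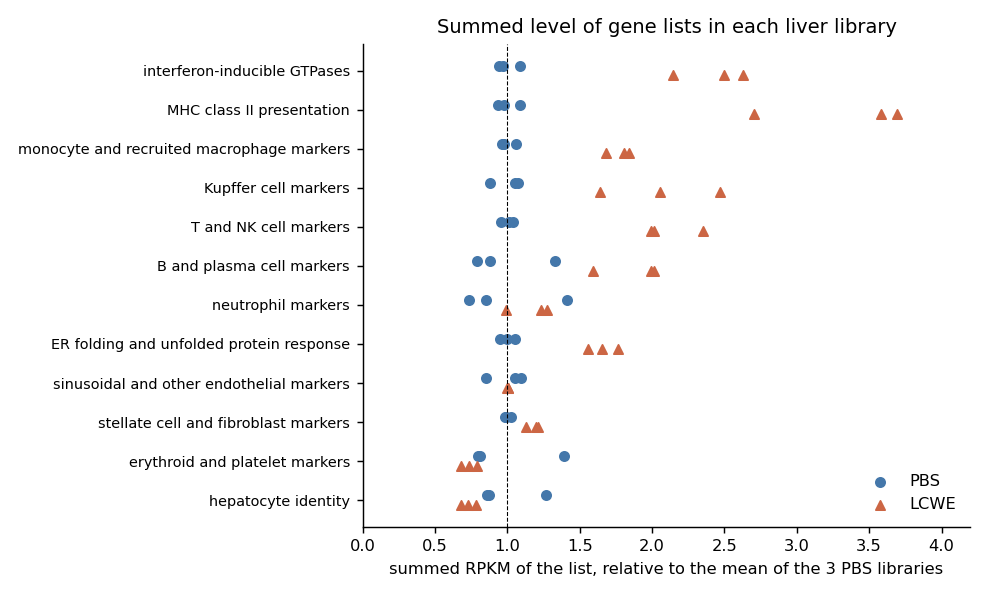
Each point is 1 liver library (circles PBS, triangles LCWE), placed by the summed RPKM of a gene list divided by the mean of the 3 PBS libraries. The groups do not overlap for interferon-inducible GTPases, MHC class II, macrophage, Kupffer, T and NK, B and plasma cell, ER and stellate cell lists. The erythroid and hepatocyte identity lists do not overlap either and are lower in LCWE. The neutrophil and endothelial lists overlap, and most of the neutrophil sum comes from genes other than the 4 that rose.

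Among markers of other resident cell types, 3.23% of the endothelial and 6.9% of the stellate cell list rose, against 3.39% of all tested genes. Of 31 endothelial markers 1 rose, 15 were higher and the median was -0.03. It was Lyve1, the hyaluronan receptor of sinusoidal and lymphatic endothelium, at 3.76, 1.84 and 2.56 against 5.4, 8.24 and 8.88 RPKM (difference 1.33 ± 0.27). The sinusoidal scavenger receptor Stab2 stood at 2.93, 7.12 and 6.45 against 6.66, 6.66 and 5.95 RPKM, with its lowest value in PBS replicate 2. Of 29 stellate cell and fibroblast markers 2 rose, 25 were higher and the median was 0.25. They were Thy1 and Vim, an intermediate filament gene that leukocytes also express, at 5.17, 3.94 and 5.23 against 10.7, 11 and 13.3 RPKM. Of 18 collagens none passed, although 15 were higher and the median was 0.58. The fibrillar collagen Col1a1 stood at 0.218, 0.383 and 0.473 against 2.14, 1.57 and 0.697 RPKM (difference 1.14 ± 0.30, limma adjusted p = 0.091). Col4a1, of basement membrane, stood at 4.53, 7.84 and 7.22 against 11.6, 11.9 and 12.7 RPKM (limma adjusted p = 0.064). Without PBS 2, 4 collagens passed, and without LCWE 4, 3 did. None of 10 cholangiocyte markers and none of 9 erythroid and platelet markers passed. The erythroid sum was highest in PBS replicate 2, at 234.1 RPKM against 115.0 to 137.0 RPKM in the other 5 libraries. Lyve1 did not pass when any single library other than PBS 2 was left out, and neither stellate marker passed without LCWE 1 or LCWE 2.

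ER chaperones, folding enzymes and parts of the degradation machinery rose together. Of 67 tested genes of ER folding and the unfolded protein response, 21 rose (31.3%, against 3.39% of all tested genes) and none fell. Of the 67, 64 were higher and the median difference was 0.42. The summed level was 4675 to 5192 RPKM in PBS and 7685 to 8686 RPKM in LCWE livers. Creld2, a secreted disulfide isomerase-like protein whose promoter is printed above, stood at 62.3, 43 and 82.5 against 406, 383 and 363 RPKM and differed by 2.65 ± 0.23 (limma adjusted p = 0.00557). Hspa5, the master chaperone BiP, stood at 285, 211 and 319 against 769, 726 and 659 RPKM and differed by 1.42 ± 0.17 (limma adjusted p = 0.0112). The abundant chaperone Hsp90b1 (GRP94) stood at 799, 781 and 874 against 1914, 1777 and 1572 RPKM. In all of these the treated libraries lay close to each other and above the highest control. The co-chaperone Sdf2l1 stood at 16.1, 12.8 and 17.1 against 51.6, 47.7 and 40.5 RPKM. The nucleotide exchange factor Hyou1 stood at 23.5, 24.6 and 40.1 against 92.9, 87.6 and 90.7 RPKM. The disulfide isomerase Pdia4 stood at 289, 270.3 and 310.3 against 657, 605 and 589 RPKM, and the co-chaperone Dnajb9 rose as well. Degradation was represented by Edem1, Herpud1 and the ubiquitin ligase Syvn1, which stood at 5.03, 6.75 and 9.85 against 27.5, 23.7 and 22 RPKM (difference 1.73 ± 0.23). Export from the ER was represented by the coat genes Sec23b and Sec24d. The stress sensor kinase Eif2ak3 (PERK) stood at 3.15, 3.42 and 4.05 against 7.64, 7.74 and 8.61 RPKM (difference 1.08 ± 0.12). Xbp1 and Atf6, the transcription factors of the other branches, did not pass, without overlap between the groups. Xbp1 stood at 63.8, 67.8 and 64.6 against 83.7, 90.7 and 71.3 RPKM (limma adjusted p = 0.201), and Atf6 stood at 4.23, 5.51 and 6.16 against 6.9, 6.85 and 8.42 RPKM (limma adjusted p = 0.194). These are levels of whole transcripts, and splicing of Xbp1 is not measured by them. Derl3 is in the plasma cell list as well. The B and plasma cell list, with the sums given above, rose with the ER genes, and its part in this result was not tested. Without LCWE 1 or LCWE 2, 4 of the 67 passed, without PBS 3 8, without LCWE 4 14, without PBS 4 17 and without PBS 2 29, while the median lay between 0.39 and 0.48.

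Genes of the ATF4 branch of the stress response went in both directions. Of 25 tested ATF4 genes, 1 rose and 2 fell (median 0.14, between 0.06 without LCWE 4 and 0.25 without PBS 4). Among all tested genes, 3.39% rose and 0.646% fell. Asns, which makes asparagine, stood at 0.991, 0.857 and 0.855 against 4.37, 4.79 and 2.95 RPKM and differed by 1.67 ± 0.18 (limma adjusted p = 0.00835). Atf4 itself stood at 82.6, 89.7 and 103 against 64.4, 61.5 and 55.5 RPKM (difference -0.60 ± 0.12). Fgf21, a liver hormone of fasting and stress, stood at 1.53, 0.939 and 2.33 against 0.0554, 0.0936 and 0.121 RPKM. In reads, Fgf21 had 32 to 87 per PBS library and 2 to 4 per LCWE library (difference -1.78 ± 0.24, limma adjusted p = 0.0159). Fgf21 reached the filter only through the PBS libraries and so had to be lower in LCWE. Ddit3, which encodes CHOP, stood at 15.4, 19.2 and 31.1 against 37.3, 34.4 and 25.8 RPKM and did not pass. Of 20 heat shock genes, the small chaperone Hspb8 and the co-chaperone Chordc1 rose and all 20 were higher (median 0.50, or 0.19 without PBS 2 and 0.77 without PBS 4). Hspa1a stood at 1.5, 13.9 and 23.9 against 12.6, 15.8 and 13.4 RPKM, with PBS replicate 2 far below the other 5 libraries. Leaving out LCWE 1 or LCWE 2 left no call in either list. Without PBS 2, 2 ATF4 genes and 2 heat shock genes passed.

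Metallothioneins, small proteins that bind zinc and copper, rose from very low levels. Mt2 stood at 0.914, 0.19 and 0.173 against 8.6, 33.3 and 27.7 RPKM and differed by 4.56 ± 0.54 (limma adjusted p = 0.0108). In reads this was 4 to 24 per PBS library and 192 to 879 per LCWE library. Mt1 stood at 1.26, 0.314 and 0.612 against 3.79, 10.8 and 16.7 RPKM and differed by 3.01 ± 0.53. For both, LCWE replicate 1 was the lowest treated library and still above every control. The zinc importer Slc39a14 (ZIP14), which takes zinc and iron into hepatocytes in inflammation, stood at 4.39, 5.51 and 6.57 against 10.5, 10.004 and 9.94 RPKM (difference 0.85 ± 0.15). With Slc30a5, a zinc transporter of the secretory pathway, these were the 4 of 15 tested metal genes that rose (26.7%, against 3.39% of all tested genes). Of the 15, 12 were higher (median 0.33). Of 34 iron genes 4 rose (11.8%), namely Lcn2, Slc39a14, Cp and the phagosomal iron exporter Slc11a1. Hepcidin, Hamp, the hormone that blocks iron release, stood at 299, 442 and 769 against 471, 601 and 869.8 RPKM, with overlapping groups (limma adjusted p = 0.598). Haem oxygenase, Hmox1, stood at 7.0, 7.87 and 11.5 against 13.4, 15.8 and 17.5 RPKM (limma adjusted p = 0.0745). None of 33 NRF2 and antioxidant genes passed (9 higher, median -0.15), or 4 without PBS 2. No zinc or iron gene passed without PBS 3 or LCWE 2, and 5 and 6 did without PBS 2.

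The largest falls were in the measured levels of 7SL RNA and 7SK RNA. 7SL is the RNA of the signal recognition particle that brings ribosomes to the ER, and 7SK restrains transcription elongation. Rn7s1 (chromosome 12, 69159295 to 69159594) stood at 488, 419.9 and 429 against 63.2, 13.5 and 16.1 RPKM and differed by -4.18 ± 0.54 (limma adjusted p = 0.0135). Rn7s2 stood at 57, 62.7 and 56.9 against 2.9, 0.89 and 2.69 RPKM (difference -4.59 ± 0.33). Rn7s6 stood at 28.5, 34.5 and 33.7 against 0.362, 0 and 0 RPKM (difference -5.77 ± 0.23). Rn7s6 had 360 to 386 reads per PBS library, 4 reads in LCWE 1 and none in LCWE 2 and 4, where 3 reads would be 0.229 and 0.297 RPKM. It reached the filter only through the PBS libraries and so had to be lower in LCWE. Rn7sk stood at 22.7, 12 and 9.83 against 3.66, 1.88 and 0.522 RPKM (difference -2.74 ± 0.54, limma adjusted p = 0.0437). All 4 separated the groups without overlap. The 7SL genes are near-identical, so that reads may have been split between copies. Library preparation is described only as a standard Illumina method. Whether it captured 7SL and 7SK alike in all libraries was not tested. These were the 4 of 10 tested small structural RNA genes that fell (40.0%, against 0.646% of all tested genes). The list summed to 563.3 to 633.3 RPKM in PBS and 22.2 to 82.9 RPKM in LCWE livers. Of 15 protein partners of these RNAs, 3 rose and 1 fell (26.7% called). Srp54a, Srp54b and Srp68 of the particle rose, with Srp68 at 24.4, 29.2 and 30.4 against 43.7, 39.6 and 44.2 RPKM. Hexim1, which inhibits elongation together with 7SK, fell, at 21.4, 24.8 and 24.4 against 15, 14.4 and 15.7 RPKM. Srp9, which binds the end of 7SL that lies away from Srp54, stood at 13.1, 11.6 and 11.8 against 12.2, 11.7 and 12.3 RPKM, with overlapping groups. Of 70 small nucleolar RNA genes Snord35a alone passed, a fall (1.43%). Of 279 tested microRNA genes 9 rose and 1 fell, a share of 3.58% against 4.04% of all genes. Reads on these genes can come from longer transcripts and do not measure mature microRNAs. Mir142b, from a locus known in blood cells, stood at 0.974, 0.728 and 0.663 against 3.44, 2.9 and 3.5 RPKM. Mir223, a myeloid microRNA gene, stood at 0.407, 0.507 and 0.462 against 3.11, 2.43 and 1.57 RPKM. When 1 library was left out, 1 (without PBS 3) to 4 (without LCWE 1) structural RNA genes and 2 (without LCWE 2) to 14 (without PBS 2) microRNA genes passed. None of the protein partners passed when any single library other than PBS 2 was left out. The difference of Rn7sk lay between -3.21 and -2.19 in these fits.

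Several genes of sterol synthesis fell. Of 32 tested genes of cholesterol synthesis and SREBP2 control, 4 fell and 28 were lower, with a median of -0.53. The fallen share was 12.5%, against 0.646% of all tested genes. In 21 of the 32 the groups do not overlap, which was so for 27.5% of all tested genes. Hmgcs1, an early enzyme of the pathway, stood at 201, 202 and 158 against 122, 100.03 and 80.5 RPKM and differed by -0.90 ± 0.18 (limma adjusted p = 0.0457). The lanosterol demethylase Cyp51 stood at 40.7, 39.2 and 38.7 against 27, 24.4 and 23.2 RPKM (difference -0.66 ± 0.10). Sc5d, a late desaturase, stood at 135, 106 and 102 against 55.8, 43.7 and 66.9 RPKM (difference -1.05 ± 0.18). The controls lay above the treated libraries in all of them, as for Insig1, the sterol-regulated anchor that holds SREBP in the ER, at 95.8, 105 and 101 against 49.6, 39.4 and 61 RPKM (difference -1.02 ± 0.16). The groups overlapped for the transcription factor Srebf2, at 3.38, 5.42 and 4.41 against 4.66, 4.26 and 4.06 RPKM. No gene of the 32 passed without PBS 3, PBS 4, LCWE 1 or LCWE 2, 3 passed without LCWE 4 and 6 without PBS 2, while the median lay between -0.58 and -0.40.

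Fatty acid and glucose genes fell singly. Of 30 genes of fatty acid synthesis 1 fell (3.33%, against 0.646% of all tested genes) and 22 were lower (median -0.36, between -0.56 without LCWE 4 and -0.23 without LCWE 2). It was Mid1ip1, an activator of acetyl-CoA carboxylase, at 43.5, 41 and 42.1 against 16.8, 21 and 21.3 RPKM (difference -1.09 ± 0.12, limma adjusted p = 0.00847). Scd1, the stearoyl-CoA desaturase, stood at 1843, 751 and 949 against 558, 608 and 1876 RPKM, where PBS replicate 2 and LCWE replicate 4 were high together and the groups overlapped. Of 53 oxidation genes and targets of PPAR alpha, Fgf21 and the acyl-CoA thioesterase Acot3 fell (3.77%) and 44 were lower (median -0.22). Both fallen genes reached the filter only through the PBS libraries and so had to be lower in LCWE. Acot3 stood at 1.38, 1.03 and 0.782 against 0.081, 0.12 and 0.266 RPKM (difference -1.25 ± 0.19). Cpt1a, the entry step of mitochondrial oxidation, stood at 25.4, 36.5 and 30.6 against 34.3, 33.1 and 35 RPKM, with overlapping groups. Of 41 genes of glucose and glycogen metabolism 2 fell (4.88%). G6pc, the last step of glucose release, stood at 106, 132 and 206 against 31.2, 35.2 and 62.4 RPKM (difference -1.79 ± 0.33, limma adjusted p = 0.0379). The liver glycogen synthase Gys2 stood at 44.5, 43.8 and 40.2 against 25.7, 26 and 31.8 RPKM. Pck1, the other control step of glucose production, stood at 213, 379 and 557 against 523, 394 and 873 RPKM, with overlapping groups. None of 62 urea cycle and amino acid genes passed (median -0.05). No oxidation or glucose gene passed without PBS 3, PBS 4, LCWE 1 or LCWE 2. Without LCWE 4, 5 synthesis, 3 oxidation and 3 glucose genes passed, and without LCWE 2 no synthesis gene did.

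Drug- and ester-metabolising enzymes changed in a few members. Of 12 carboxylesterases, 3 neighbours on chromosome 8 fell, where 0.646% of all tested genes did, and 11 were lower (median -0.49). Ces1d, a lipase of hepatocytes and fat, stood at 159, 128 and 141 against 39.7, 47.7 and 80.9 RPKM and differed by -1.40 ± 0.26 (limma adjusted p = 0.0379). Ces1f stood at 153, 134 and 138 against 68.4, 77.6 and 94.8 RPKM (difference -0.82 ± 0.14). The plasma esterase Ces1c stood at 709, 589.6 and 646 against 412, 465 and 425 RPKM (difference -0.58 ± 0.11). In all 3 the groups do not overlap. Of 50 phase II enzymes 1 fell (2.0%, against 0.646% of all tested genes) and 43 were lower (median -0.26). It was the glutathione transferase Gsta3, at 430.0, 404 and 402 against 239, 253 and 296 RPKM (difference -0.66 ± 0.11). Nnmt, which methylates nicotinamide, ran against the group at 31, 18 and 19.7 against 53.2, 57.1 and 39.3 RPKM but did not pass (limma adjusted p = 0.0529). Of 53 cytochrome P450 genes Cyp2b10 alone passed (1.89%, against 4.04% of all tested genes). It rose from low levels, at 0.148, 0.291 and 0.0722 against 1.65, 1.33 and 2.32 RPKM (difference 1.75 ± 0.21, limma adjusted p = 0.0108). The abundant Cyp3a11 stood at 356, 463 and 443 against 371, 388 and 434 RPKM, with overlapping groups. Of 39 bile acid genes 1 fell (2.56%), the sterol exporter Abcg8, at 7.76, 8.93 and 7.54 against 5.18, 4.48 and 5.36 RPKM. Cyp7a1, the rate-limiting enzyme of bile acid synthesis, stood at 16.7, 15.3 and 14.3 against 23.6, 33.8 and 20.6 RPKM without overlap and did not pass (limma adjusted p = 0.0949). Of 39 lipoprotein and lipid transport genes 2 passed (5.13%), Abcg8 and 1 that rose. The latter was Lpl, the lipase that frees fatty acids from lipoproteins, at 2.4, 2.0 and 2.23 against 4.72, 4.15 and 4.4 RPKM (difference 0.86 ± 0.11). None of the carboxylesterase, phase II, bile acid or lipoprotein genes passed without PBS 3, PBS 4, LCWE 1 or LCWE 2, and Cyp2b10, which reached the filter only through the LCWE libraries, passed without each PBS library and was untested without an LCWE library.

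Among markers of hepatocyte position, 8.33% of the pericentral and 2.86% of the periportal list were called, against 4.04% of all tested genes. Of 36 pericentral markers, Blvrb and Rgn fell and the receptor gene Ahr rose, at 1.97, 1.86 and 1.5 against 3.8, 3.94 and 2.93 RPKM. Of 35 periportal markers G6pc alone passed. None of 8 hepatocyte identity genes passed; they summed to between 30718 and 45148 RPKM in PBS and between 24280 and 28074 RPKM in LCWE, without overlap. None of 39 hepatocyte transcription factors passed. Hnf4a, which sets hepatocyte identity, stood at 68.3, 91 and 98.6 against 105, 130.3 and 119 RPKM, without overlap (limma adjusted p = 0.188). The median of that list was 0.03, or -0.08 with quantile scaling and -0.05 with median-ratio scaling. Moxd1, a monooxygenase homologue listed here among male-biased liver genes, stood at 1.02, 0.96 and 1.88 against 60.5, 18.3 and 16.8 RPKM (difference 3.96 ± 0.49, limma adjusted p = 0.0124), with LCWE replicate 1 far above the other treated libraries. It was the 1 of 24 male-biased genes that passed (4.17%). None of 21 major urinary protein genes, which are near-identical copies, passed. Of 31 cell cycle genes 2 rose (6.45%, against 3.39% of all tested genes) and 26 were higher (median 0.31, or 0.14 over the 29 tested without LCWE 4). They were Ccnd1, which drives entry into the cycle, and Mki67, a marker of dividing cells, at 0.917, 1.52 and 1.21 against 2.67, 3.15 and 3.85 RPKM. The immediate early gene Dusp1 stood at 6.65, 7.7 and 6.72 against 2.23, 3.05 and 4.27 RPKM (difference -1.07 ± 0.21). Egr1, of the same list, stood at 11.2, 1.25 and 1.03 against 0.817, 0.526 and 16.2 RPKM, high in PBS replicate 2 and LCWE replicate 4 and low in the others. None of 16 clock genes, 89 cytosolic ribosomal proteins (median -0.05) or 77 respiratory chain genes (8 higher, median -0.15) passed. The calls on pericentral, periportal, cell cycle and immediate early genes were lost without PBS 3, PBS 4, LCWE 1 or LCWE 2. Without LCWE 4, 1 transcription factor and 1 clock gene passed.

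The small intestine libraries allowed a test of whether the difference in liver departed from that in another tissue. The interaction of treatment and tissue passed in 158 of 14404 genes in limma (1.1%), 120 of which had passed in liver. The 24 genes named for the size of their change in liver were chosen on values that this interaction contains, so that the number of them that passed, 16, is a description and no support. Saa2 stood at 1.13, 1.2 and 1.31 against 1.19, 1.08 and 1.1 RPKM in the intestine (listed in the same order), a difference of -0.08 there against 5.65 in liver (limma adjusted p of the tissue difference = 3.38e-05). Marco stood at 1.06, 2.82 and 2.26 against 0.697, 1.39 and 1.23 RPKM in the intestine, a difference of -0.62 (limma adjusted p of the tissue difference = 0.0319). Creld2 stood at 83.8, 73.7 and 87.9 against 121, 124 and 179 RPKM there, with the treated libraries above the controls, a difference of 0.76 against 2.65 in liver (limma adjusted p of the tissue difference = 0.0167). Rn7s1 stood at 411, 252 and 371 against 295, 225 and 226 RPKM in the intestine, with overlapping groups, a difference of -0.45 (limma adjusted p of the tissue difference = 0.0214). Saa1, Tgtp1, Rn7sk, G6pc, Ces1d, Mir7046, Clstn3 and Dusp1 did not pass, which does not show that their tissues are alike. Saa1 varied widely in intestinal controls, at 0.93, 1.97 and 24.7 against 8.45, 3.14 and 8.45 RPKM. The same replicate numbers occur in both tissues, and the labels do not say whether those libraries share an animal.

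**Figure D5:**
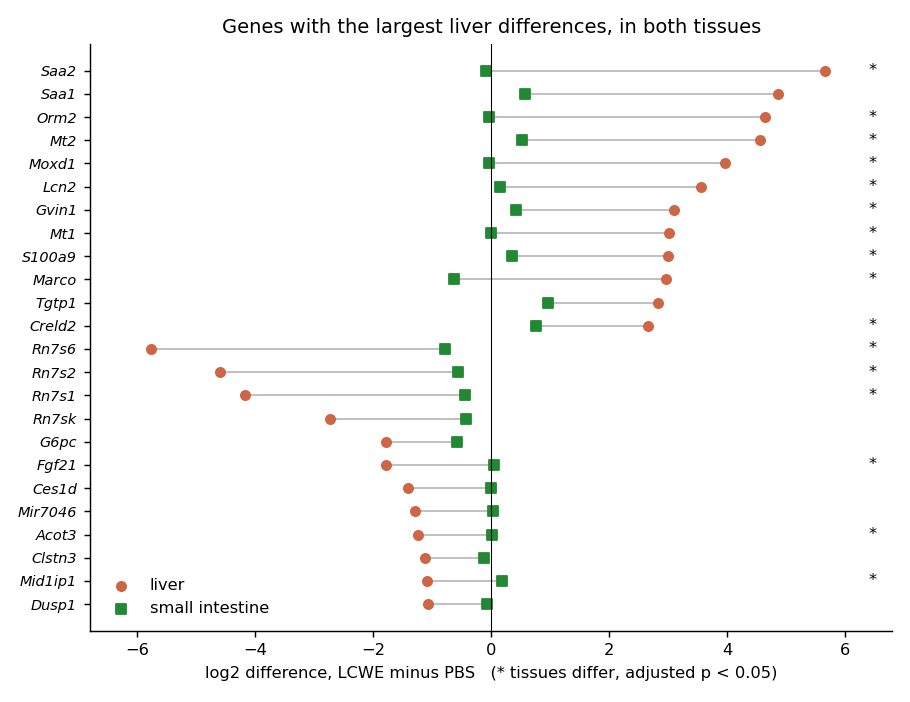
For the 12 largest named rises and 12 largest named falls in liver, circles give the log2 difference, LCWE minus PBS, in liver and squares that in small intestine. Asterisks mark the 16 genes whose tissues differed at an adjusted p of 0.05; every square lies within 1 of 0.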

How the data were processed

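The authors deposited 1 table of RPKM values, which per the file headers gives a value for each gene and library. Per the labels' protocols, TRIzol was used for RNA extraction, DNase I removed DNA, and library preparation followed a standard Illumina method. Tools listed in the submitters' processing notes are edgeR 3.12.1, featureCounts, Subread 1.5.1 and Trimmomatic 0.36, and the build is mm10; the aligner and the handling of strand are not given in the sources used here, so overlapping and antisense genes cannot be told apart. Gene values in the deposited table are whole multiples of the RPKM of 1 read: 100.0% of values above 0 came out whole within 0.001, which gave the reads per library. The 12 library columns were matched to samples by title, and 4 columns that match no sample were not used. The authors' table of differential expression was not used either.

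Values were tested as log2(RPKM + 0.5) in limma 3.58.1 (R 4.3.3), with variance moderated along a trend, over the 6 liver libraries and Benjamini-Hochberg adjustment over the 14404 genes that reached 0.5 RPKM in 3 or more of them, called below 0.05; the tissue difference came from 1 fit over the 4 groups. The fit was tested on simulated data. Promoters are RefSeq sequences matched by symbol, from 250 bases before to 50 after each start. An exact two-sided permutation test of 3 against 3 cannot go below 0.1 and was not used. Genes are named by rule: the 12 largest rises and 12 largest falls among called genes whose groups do not overlap, with a mean of at least 1 RPKM in one group and no predicted or clone name, antibody or T cell receptor segment, pseudogene or mitochondrial gene, and the 3 smallest p-values of each of 63 lists. Further list members were named after their values were seen. A few genes that the rule names are not reported here. The comparison, the lists and the promoter motifs were chosen with earlier results of these data known. Alternatives were other pseudocounts, filters and scalings, robust moderation, voom on the recovered reads, 1 fit over the 4 groups, a replicate block and leaving out each library. The labels do not say whether equal replicate numbers mark a shared animal, day or batch, and the groups share only numbers 2 and 4.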

Additional observations from a re-analysis of the deposited data

Results flagged for a closer look

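For 16 of the 24 genes named for the size of their change in liver, the LCWE effect differed between liver and small intestine in the limma interaction test, which 158 of 14404 genes passed (1.1%), 120 of them called in liver. The 24 were chosen on liver values that the interaction contains, so a large difference between tissues was favoured by the choice and the 16 are given as a description. The values that follow are the liver effect minus the intestine effect on the log2 scale. Among acute phase and metal-binding genes the difference was 5.73 for Saa2, 4.69 for Orm2, 3.40 for Lcn2, 4.05 for Mt2 and 3.02 for Mt1. In the 6 intestine libraries Saa2 lay between 1.08 and 1.31 RPKM, Orm2 between 1.12 and 1.70 RPKM and Lcn2 between 0.176 and 0.405 RPKM. Among leukocyte and interferon-induced genes it was 2.67 for Gvin1, 2.66 for S100a9 and 3.59 for Marco. It was 3.998 for Moxd1 and 1.89 for the ER gene Creld2. Among genes that fell in liver it was -4.98 for Rn7s6, -4.03 for Rn7s2, -3.73 for Rn7s1, -1.82 for Fgf21, -1.27 for Acot3 and -1.27 for Mid1ip1. In the intestine Fgf21 lay between 0 and 0.0694 RPKM and Acot3 was listed at 0 in 5 of 6 libraries, while Mid1ip1 lay between 21.97 and 32.52 RPKM. Liver and intestine libraries with the same number may come from the same animal, which the labels do not say.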

How the results depend on the processing

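Of 14404 genes, 582 passed in liver. With no filter 335 passed, of which 267 were among the 582; with 1 fit over the 4 groups 987 passed, 513 of them shared. Robust moderation, voom, pseudocounts of 0.1 and 1, scaling by quantiles or median ratios and a filter of 1 RPKM gave 465 (quantile) to 730 (voom) calls, the last with 536 shared. Leaving out 1 library gave 55 (without LCWE 2) to 943 (without PBS 2) calls; without PBS 3 and LCWE 1, 113 and 88 passed, and without PBS 4 and LCWE 4, 235 and 249; every such fit has fewer samples. Of the calls 84.0% had risen, against 73.6% with quantile and 76.6% with median-ratio scaling, which moved the median difference of all genes from 0.06 to -0.03 and -0.00083. At an unadjusted p below 0.05 there were 2697 genes. With the replicate number as a block, 24 genes passed (12 risen, 12 fallen), 22 of them among the 582; only numbers 2 and 4 occur in both groups, so the fit rests on those 4 libraries. The cause of the other changes was not tested. The 158 tissue differences became 30 with the replicate block, and 39 (without intestine PBS 3) to 325 (without intestine LCWE 1) when 1 library was left out. Of the 173 single genes followed through the alternatives, 1 changed sign: Ddx3y, which was not called, differed by 0.15, by -0.08272 without PBS 2 and by up to 0.32 without PBS 3. Depth was 34741958 reads or more in each liver library, so that low genes such as Mir7046, with 3 or 4 reads in each PBS and 0 or 1 in each LCWE library, rest on few reads.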

Other observations

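Of the called genes, 313 that rose and 68 that fell are in none of the 63 lists; those given here were chosen after their values were seen, and differences are log2, LCWE minus PBS, called by limma. Several that rose act in leukocyte signalling. The adaptor Lcp2 stood at 2.51, 2.11 and 2.35 against 5.78, 6.58 and 5.71 RPKM and rose by 1.21, the exchange factor Vav1 by 1.07, the shared cytokine receptor chain Il2rg by 1.32 and the adaptor Fyb by 1.44. As their levels moved with the leukocyte markers, more cells and more RNA per cell cannot be told apart. The eosinophil granule gene Prg2 was listed at 0 in PBS replicates 3 and 4, at 0.16 RPKM in PBS replicate 2 and between 0.962 and 1.59 RPKM in LCWE, and Ear2, of the same granules, rose by 1.09.

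Others act between the ER and the Golgi or in sugar supply for glycoproteins. Arfgap3, which acts on Golgi transport vesicles, stood at 3.53, 2.98 and 2.84 against 8.12, 8.06 and 9.24 RPKM (difference 1.31). Gfpt1, the first enzyme of the hexosamine pathway, rose by 1.33, Tmed3 by 1.13, Golph3l by 1.13 and Nucb2 by 1.55. The ubiquitin-like gene Ubd stood at 1.97, 2.25 and 1.15 against 14.6, 14.3 and 6.43 RPKM, without overlap although its treated libraries spread widely. Among the genes that fell, Hacl1, a peroxisomal enzyme of fatty acid alpha-oxidation, stood at 79.8, 91.2 and 79.0 against 48.2, 45.8 and 55.5 RPKM (difference -0.74). Car5a, a mitochondrial carbonic anhydrase, differed by -0.67, the tight junction gene Cldn1 by -0.62 and the glyoxalase Glo1 by -0.47. Of these genes Vav1, Il2rg, Fyb, Prg2, Ear2, Gfpt1, Tmed3, Golph3l, Nucb2, Ubd, Hacl1, Car5a, Cldn1 and Glo1 each missed the threshold in at least 1 of the 6 fits that left out 1 library.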
